A study of Drosophila melanogaster with 8 samples.

Results

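The genes of oxidative phosphorylation were read in adult Drosophila heads by 76 probe sets for 67 genes, out of 18769 probe sets tested. A probe set was a member when the array annotation gave it a single gene symbol that is RFeSP or starts with ND-, UQCR-, COX or ATPsyn. Of all probe sets, 13646 had a single symbol, 402 had several and 4721 had none. Another 4 probe sets of such genes carried a second symbol and were left out. The members were 35 probe sets for complex I, 8 for complex III, 17 for complex IV and 16 for complex V. Within them, 58 probe sets read 49 genes for subunits, and 18 probe sets read 18 paralogs, the duplicated genes whose symbol ends in L or in L and a digit. No assembly factor was among the members. The RefSeq gene table holds 84 genes that follow the rule, and the 17 without a single-symbol probe set include ND-23, ND-24, ND-30, ND-49, UQCR-C1, UQCR-C2 and the mitochondrially encoded COX1, COX2 and COX3. The values therefore describe mRNAs of nuclear genes. All probe sets of a gene were kept, because those of RFeSP were known from earlier results of these arrays to disagree.

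Flies of the HEXIM knockdown carried the GMR-Gal4 driver and the UAS-Hexim-RNAi transgene, and the control flies (WT) were wild type of the W118 strain with neither. HEXIM sequesters the transcription elongation factor P-TEFb. GMR-Gal4 drives the hairpin in differentiating cells of the eye, whereas total RNA was taken from whole heads of adults, pooled in each sample, and 4 biological replicates of each genotype were hybridized to Affymetrix Drosophila_2 arrays. The growth protocol gives 29°C for both genotypes, and neither sex nor age in days is given. Since WT flies have no driver and no transgene, effects of either cannot be told apart from those of the loss of HEXIM.

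Oxidative phosphorylation passes electrons from NADH and succinate along the respiratory complexes of the inner mitochondrial membrane to oxygen. Complexes I (NADH dehydrogenase), III (cytochrome bc1) and IV (cytochrome c oxidase) pump protons on the way, and complex V (ATP synthase) lets them flow back to make ATP. Most subunits are encoded in the nucleus, and photoreceptors, neurons and muscle of the fly head are among the tissues with a high demand for ATP.

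Each array gave 1 log2 level per probe set, and array medians lay between 5.43 and 5.57. Hexim itself stood at log2 levels of 7.60, 7.54, 7.52 and 7.77 in HEXIM knockdown heads, against 8.14, 7.85, 7.96 and 7.79 in WT heads. Its HEXIM knockdown arrays all lay below its WT arrays, yet limma gave an adjusted p of 0.418 to its log2 fold change (-0.33, SE 0.10). Whether this probe set also reads the hairpin was not tested. A first principal component with 51.3% of the variance set 3 arrays, HEXIM knockdown replicate 4 and WT replicates 1 and 3, apart from the other 5. For the GAPDH control, the middle minus the 3' end probe set came to -3.37 to -2.91 on the log2 scale in those 3 arrays and to -2.09 to -1.59 in the other 5. The same measure of the Act5C and eIF-4a controls also set the 3 arrays apart. The 5' minus the 3' end of GAPDH did not, at -7.62 to -7.20 in the 3 arrays and -7.60 to -7.10 in the other 5. Whether the 5' probe set was too dim to show a further fall in the 3 arrays was not tested. No probe set of the photoreceptor markers (27 probe sets, 14 of 21 genes), of the neuron markers (12 probe sets, 8 of 10 genes) or of the glia markers (5 probe sets, 5 of 7 genes) passed the test, while 3, 0 and 1 of them had an unadjusted p under 0.05. Over all probe sets tested, 0.256% passed and 7.24% had an unadjusted p under 0.05 in limma. The mean log2 level over the photoreceptor markers was 8.52 to 8.74 in HEXIM knockdown arrays and 8.52 to 8.78 in WT arrays. This mean hides both directions, with 13 log2 fold changes positive and 14 negative. The 3 at an unadjusted p under 0.05 were probe sets of rdgC (-0.34), trpl (-0.29) and Rh7 (0.34). Rh7 was the only rhodopsin gene measured in this list, so the mean does not cover the others. The paper reports reduced rhodopsin expression and smaller eyes in HEXIM knockdown flies, and a loss of photoreceptor RNA was not tested. Of 25 probe sets for 17 of 23 muscle genes, 1 passed, that of the troponin C gene TpnC4, at -1.24 (limma adjusted p = 0.0156). Among these 25, log2 fold changes went both ways, 10 positive and 15 negative. The mean log2 level over the muscle genes was 9.69 to 10.07 in HEXIM knockdown arrays and 9.79 to 10.11 in WT arrays. All 9 measured fat body genes of 10 had a positive log2 fold change (median 0.91, 0 called, 3 at an unadjusted p under 0.05), with mean log2 levels of 11.22 to 12.02 in HEXIM knockdown arrays and 9.79 to 11.39 in WT arrays. The value of 9.79 was that of WT replicate 3 alone, and the other WT arrays lay between 11.05 and 11.39. This list includes the yolk protein genes Yp1, Yp2 and Yp3, and the part of sex, which is not given, was not tested. The part of these cell types in the results below was not tested.

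HEXIM knockdown heads differed from WT heads in 1 of the 76 oxidative phosphorylation probe sets, a probe set of RFeSP that was lower (limma, Benjamini-Hochberg adjusted p under 0.05). Over all probe sets tested, 0.256% passed the test and 0.112% passed it as lower. At an unadjusted p under 0.05 there were 2 members, the RFeSP probe set and that of the paralog ATPsynepsilonL, where the share of all probe sets was 7.24%. The HEXIM knockdown and WT arrays did not overlap for 2 members, both lower in HEXIM knockdown, namely the RFeSP probe set and COX5B, against 5.35% of all probe sets in either direction and 3.37% as lower. Apart from the called probe set, log2 fold changes lay between -0.20 for COX7AL2 and 0.24 for ATPsynepsilonL, and the lowest adjusted p was 0.553. The 95% interval of the log2 fold change lay within 0.5 of 0 for 69 of the 76 probe sets and within 0.3 of 0 for 35. Of these, 15 and 7 were probe sets of paralogs, most of them dim. Among all 18769 probe sets tested, the counts were 12963 and 5481. Each level is a mean over the cells of the head, so that fewer cells of a type and less RNA per cell cannot be told apart.

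RFeSP encodes the Rieske iron-sulfur protein, the subunit of complex III that takes electrons from ubiquinol. Its probe set 1641174_at stood at log2 levels of 8.44, 8.40, 7.86 and 7.76 in HEXIM knockdown heads, against 9.48, 9.47, 9.30 and 9.69 in WT heads. All 4 HEXIM knockdown arrays lay below all 4 WT arrays, and replicates 3 and 4 of the HEXIM knockdown were the lowest. The means were 8.12 ± 0.36 in HEXIM knockdown and 9.48 ± 0.16 in WT heads (SD, n = 4 each). The log2 fold change was -1.37 (SE 0.18, 95% interval -1.77 to -0.97, limma adjusted p = 0.0258), a level in HEXIM knockdown of 38.7% of that in WT. This call was known from earlier results of these arrays.

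The other RFeSP probe set, 1631856_a_at, had a log2 fold change close to 0. It stood at log2 levels of 11.76, 11.71, 11.46 and 11.58 in HEXIM knockdown heads, against 11.66, 11.74, 11.48 and 11.80 in WT heads. These ranges overlapped almost entirely, and the fitted value was -0.04 (SE 0.10, 95% interval -0.28 to 0.19). The suffix _a_at marks a probe set that matches several transcripts of 1 gene, and RFeSP has 3 transcripts in the RefSeq table. Taken within each array, 1641174_at minus 1631856_a_at was -3.32, -3.31, -3.60 and -3.82 in HEXIM knockdown heads, against -2.18, -2.27, -2.19 and -2.11 in WT heads. The difference averaged -3.51 ± 0.25 in HEXIM knockdown and -2.19 ± 0.06 in WT heads (SD, n = 4 each), 1.32 apart, with no overlap. No test is given for it, since RFeSP was singled out for this disagreement.

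The gene that overlaps RFeSP in the RefSeq annotation, CG14352, was read by its own probe set at log2 levels of 5.02, 5.41, 5.07 and 4.52 in HEXIM knockdown heads, against 4.66, 5.74, 4.89 and 5.57 in WT heads. Its arrays overlapped between genotypes, and its log2 fold change was -0.21 (SE 0.28, limma adjusted p = 1.00). For lncRNA:CR44603, a non-coding RNA gene on the other side, no probe set was found. The call of RFeSP 1641174_at did not hold in every fit that left out 1 array. It held without HEXIM knockdown replicate 1 (adjusted p = 0.0237) or replicate 4 (0.0384). It did not hold without HEXIM knockdown replicate 2 (0.0712) or 3 (0.0923), or without WT replicate 1 (0.0953), 2 (0.111), 3 (0.0966) or 4 (0.105). The log2 fold change stayed between -1.48 and -1.25 throughout. In the fits that lost the call, 10 to 13 probe sets were called over all. With all arrays 48 were called, and 46 and 48 in the fits that kept it.

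**Figure D1:**
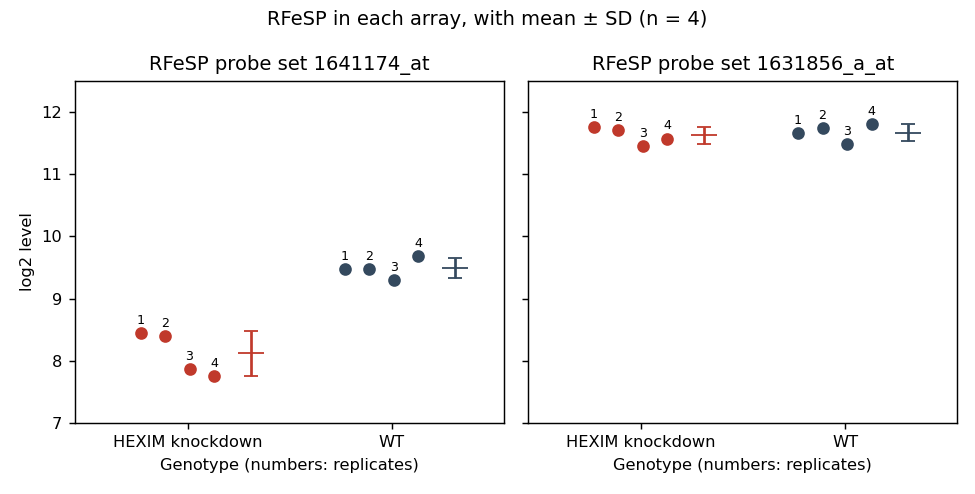
Log2 level (y axis) of the 2 RFeSP probe sets in each HEXIM knockdown and WT array (points, numbered by replicate), with the mean and SD of each genotype beside them (n = 4 each). In probe set 1641174_at the HEXIM knockdown arrays (7.76 to 8.44) lie below the WT arrays (9.30 to 9.69), whereas in 1631856_a_at they overlap.

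The other subunits of complex III had small log2 fold changes. UQCR-14, a small matrix-side subunit, stood at log2 levels of 13.06, 13.06, 12.96 and 12.92 in HEXIM knockdown heads, against 12.89, 13.05, 12.99 and 13.17 in WT heads, a log2 fold change of -0.02 (SE 0.08). UQCR-Q stood at log2 levels of 11.18, 11.17, 11.06 and 11.12 in HEXIM knockdown heads, against 11.14, 11.18, 11.18 and 11.17 in WT heads. Its HEXIM knockdown replicate 3 was the lowest array, and the 95% interval of its log2 fold change reached from -0.18 to 0.11. UQCR-6.4 had a log2 fold change of -0.09 (SE 0.07, 95% interval -0.26 to 0.08). UQCR-11 encodes the acidic hinge protein at the site where cytochrome c docks. Its log2 levels were 6.52, 6.22, 6.63 and 8.02 in HEXIM knockdown heads, against 7.80, 6.16, 7.70 and 6.27 in WT heads. Both genotypes held high and low arrays, so that its log2 fold change of -0.14 had an SE of 0.51 and an interval of -1.29 to 1.02.

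Complex I, which takes electrons from NADH, was read by 30 probe sets for 27 subunit genes, and 0 of them passed the test. Their log2 fold changes ran from -0.14 to 0.18, with a median of -0.06, and 24 of the 30 were negative. The core subunits carry the flavin and the iron-sulfur clusters. Among them ND-75 had a log2 fold change of -0.04 (95% interval -0.22 to 0.13), ND-51, which binds NADH and the flavin, of -0.04 (-0.28 to 0.20), and ND-20 of 0.03 (-0.31 to 0.38). The lowest values belonged to accessory subunits. ND-ACP, the mitochondrial acyl carrier protein, stood in its probe set 1624776_a_at at log2 levels of 11.36, 11.43, 11.35 and 11.39 in HEXIM knockdown heads, against 11.47, 11.52, 11.40 and 11.68 in WT heads. Its log2 fold change there was -0.14 (SE 0.08, limma adjusted p = 0.888), and its 2 further probe sets gave -0.08 and -0.07. ND-15 came next at -0.13 (SE 0.08, limma adjusted p = 0.874), with WT replicate 4 the highest array at 11.94.

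The highest value in complex I was that of ND-B8, a dim probe set at log2 levels of 3.85, 3.94, 3.88 and 4.00 in HEXIM knockdown heads, against 3.76, 3.68, 3.64 and 3.88 in WT heads. The arrays of the genotypes overlapped in 1 pair, and the log2 fold change was 0.18 (SE 0.08, limma adjusted p = 0.694). ND-MLRQ, named after a subunit that is now counted with complex IV in mammals, stood at log2 levels of 13.51, 13.53, 13.45 and 13.44 in HEXIM knockdown heads, against 13.49, 13.51, 13.53 and 13.59 in WT heads. Its log2 fold change of -0.05 (SE 0.07, 95% interval -0.20 to 0.10) was among the more precise values. The accessory subunit ND-B17 had a log2 fold change of 0.06 (SE 0.18) in probe set 1630062_a_at and of -0.08 (SE 0.12) in 1631318_at. Next to RFeSP these were the probe sets of 1 gene that lay farthest apart, by 0.15.

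In complex IV, which passes electrons from cytochrome c to oxygen, 0 of 10 probe sets for 7 subunit genes passed the test. COX5B, a nuclear-encoded subunit that binds zinc, stood at log2 levels of 12.66, 12.65, 12.53 and 12.65 in HEXIM knockdown heads, against 12.73, 12.73, 12.73 and 12.84 in WT heads. The 4 arrays of the HEXIM knockdown were all below the 4 of WT, though the highest of them and the lowest of WT differed by less than the range within a genotype. The log2 fold change was -0.13 (SE 0.07, 95% interval -0.29 to 0.02), with an adjusted p of 0.807 from limma. COX4 and COX5A, which sit against the mitochondrially encoded core, had log2 fold changes of -0.06 (95% interval -0.22 to 0.09) and -0.03 (95% interval -0.20 to 0.15). COX7B was read by 3 probe sets, with log2 fold changes of -0.11 (SE 0.07) in 1627402_a_at, -0.10 (SE 0.08) in 1632440_at and -0.01 (SE 0.16) in 1641076_at. The last of these was dim, at log2 levels of 4.27 to 4.91 in HEXIM knockdown heads and 4.39 to 4.85 in WT heads. COX7C likewise had a probe set with high levels, 1625128_a_at (-0.07, SE 0.07), and a dim one, 1636323_at (0.00, SE 0.09).

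Complex V was read by 12 probe sets for 10 subunit genes, and 0 passed the test. All 12 log2 fold changes were negative, between -0.18 and -0.01. ATPsynbeta encodes the catalytic subunit, and its probe set 1630984_at stood at log2 levels of 11.11, 11.28, 11.16 and 11.61 in HEXIM knockdown heads, against 11.52, 11.42, 11.42 and 11.51 in WT heads. HEXIM knockdown replicate 4 was the highest of all 8 arrays and the other 3 HEXIM knockdown arrays the lowest, at a difference of -0.18 (SE 0.11, limma adjusted p = 0.927). Its other probe set, 1633673_a_at, gave -0.17 with an SE of 0.51. ATPsyngamma, the rotating central stalk, had log2 fold changes of -0.14 (SE 0.10) in 1632838_at and -0.08 (SE 0.14) in 1627018_s_at. The proton ring gene ATPsynC stood at log2 levels of 13.23, 13.46, 13.52 and 13.50 in HEXIM knockdown heads, against 13.50, 13.53, 13.47 and 13.48 in WT heads. HEXIM knockdown replicate 1 was the lowest array, the other 7 lay between 13.46 and 13.53, and the log2 fold change was -0.07 (SE 0.08). For subunits of the peripheral stalk, the log2 fold changes were -0.11 (SE 0.08) for ATPsynB, -0.09 (SE 0.08) for ATPsynO, -0.04 (SE 0.07) for ATPsynCF6 and -0.01 (SE 0.12) for ATPsynD.

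**Figure D2:**
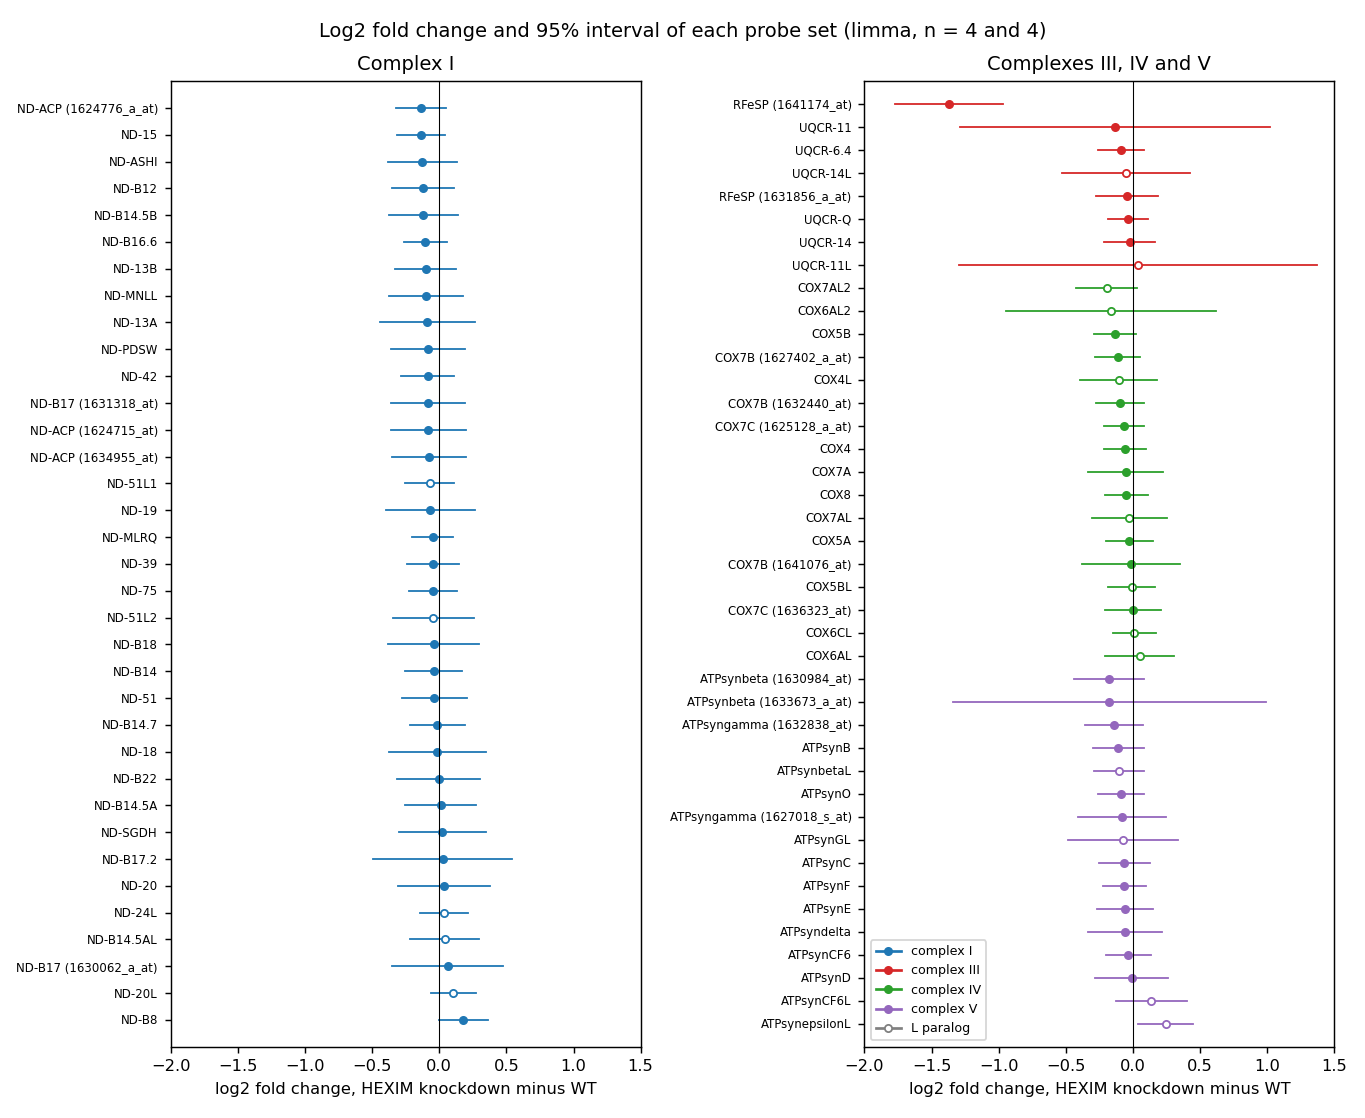
Log2 fold change, HEXIM knockdown minus WT (x axis), of each of the 76 probe sets (rows) with its 95% interval from limma (n = 4 and 4), coloured by complex, with open circles for L paralogs. RFeSP 1641174_at at -1.37 stands away from all others, which lie between -0.20 and 0.24, and the widest intervals are those of UQCR-11, UQCR-11L and ATPsynbeta 1633673_a_at.

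The paralogs are duplicates of subunit genes, many of which are known in Drosophila for expression in the testis, and 0 of 18 passed the test. Of their log2 fold changes 8 were positive and 10 negative, with a median of -0.02. Except for COX7AL2, their mean log2 levels lay between 2.96 and 6.62, in the lower part of the arrays' range. The testis markers (24 probe sets, 22 of 24 genes, 0 called) had mean log2 levels of 4.47 to 4.79 in HEXIM knockdown arrays and 4.57 to 4.72 in WT arrays. COX7AL2 stood at log2 levels of 12.39, 12.54, 12.37 and 12.73 in HEXIM knockdown heads, against 12.77, 12.58, 12.75 and 12.71 in WT heads. Its log2 fold change of -0.20 (SE 0.10, limma adjusted p = 0.802) was the lowest after RFeSP 1641174_at, and its _s_at probe set can also match other transcripts. ATPsynepsilonL had the highest value of all members. It stood at log2 levels of 5.61, 5.34, 5.51 and 5.62 in HEXIM knockdown heads, against 5.34, 5.22, 5.37 and 5.19 in WT heads. Of the HEXIM knockdown arrays, 1 lay within the WT range, and the log2 fold change was 0.24 (SE 0.09, unadjusted p = 0.0254, limma adjusted p = 0.553). UQCR-11L, at log2 levels of 6.03 to 8.17 in HEXIM knockdown heads and 5.64 to 7.52 in WT heads, had a log2 fold change of 0.04 (SE 0.58).

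Across the complexes, 61 of the 76 log2 fold changes were negative, 80.3%, against 55.4% of all probe sets tested. This background was not matched for level: the median of the mean log2 levels was 11.29 for the members and 5.49 for all probe sets. The median was -0.06 for the members and -0.02 for all probe sets. By complex, paralogs included, the median was -0.05 for complex I (26 of 35 negative), -0.05 for complex III (7 of 8), -0.05 for complex IV (14 of 17) and -0.07 for complex V (14 of 16). Among the 51 subunit probe sets with a mean log2 level over 10, log2 fold changes ran from -0.18 to 0.06 and 46 were negative. Probe sets on the same arrays are not independent, and no test is given for these medians. The mean log2 level over all 76 members was 9.69, 9.69, 9.59 and 9.68 in HEXIM knockdown arrays, against 9.69, 9.73, 9.69 and 9.82 in WT arrays. Over all members the ranges of the genotypes overlapped, with HEXIM knockdown replicate 3 the lowest array and WT replicate 4 the highest. The mean over the subunit probe sets also overlapped for complex I (10.84 to 11.04 in HEXIM knockdown, 10.84 to 11.17 in WT), complex IV (11.01 to 11.08 in HEXIM knockdown, 11.04 to 11.14 in WT) and complex V (12.16 to 12.33 in HEXIM knockdown, 12.16 to 12.53 in WT). It did not overlap for complex III (10.55 to 10.81 in HEXIM knockdown, 10.83 to 11.08 in WT), but did without RFeSP 1641174_at (11.09 to 11.42 in HEXIM knockdown, 11.10 to 11.40 in WT). For the 8 complex IV subunit probe sets with a mean log2 level over 10, it was 12.78, 12.76, 12.68 and 12.75 in HEXIM knockdown arrays, against 12.79, 12.79, 12.81 and 12.88 in WT arrays. These did not overlap, all 8 log2 fold changes were negative, and the highest HEXIM knockdown array and the lowest WT array were close together. With the same cut at 10 the means overlapped for complex I subunits (11.25 to 11.48 in HEXIM knockdown, 11.27 to 11.62 in WT). They also overlapped for the subunits of all complexes together (11.83 to 11.97 in HEXIM knockdown, 11.86 to 12.11 in WT). HEXIM knockdown replicate 3 was below the 8-array mean for 67 of the 76 members, and WT replicate 4 was below it for 15. Without WT replicate 4 the median was -0.02, with 46 of 76 negative, and without HEXIM knockdown replicate 3 it was -0.04, with 53 negative. Without HEXIM knockdown replicate 4 it was -0.04, with 54 negative. The medians by complex also moved with single arrays. For complex I the median was 0.01 without WT replicate 4, -0.01 without HEXIM knockdown replicate 4, -0.02 without HEXIM knockdown replicate 3, and -0.07 to -0.09 without HEXIM knockdown replicate 1 or 2 or WT replicate 1 or 3. For complex III it was -0.16 without HEXIM knockdown replicate 4, -0.14 without WT replicate 2, -0.12 without WT replicate 4, and -0.03 without HEXIM knockdown replicate 3 or WT replicate 3. For complex V it was -0.03 without WT replicate 4, -0.04 without HEXIM knockdown replicate 4, -0.05 without WT replicate 2 and -0.11 without WT replicate 3. For complex IV it stayed between -0.08 and -0.04.

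**Figure D3:**
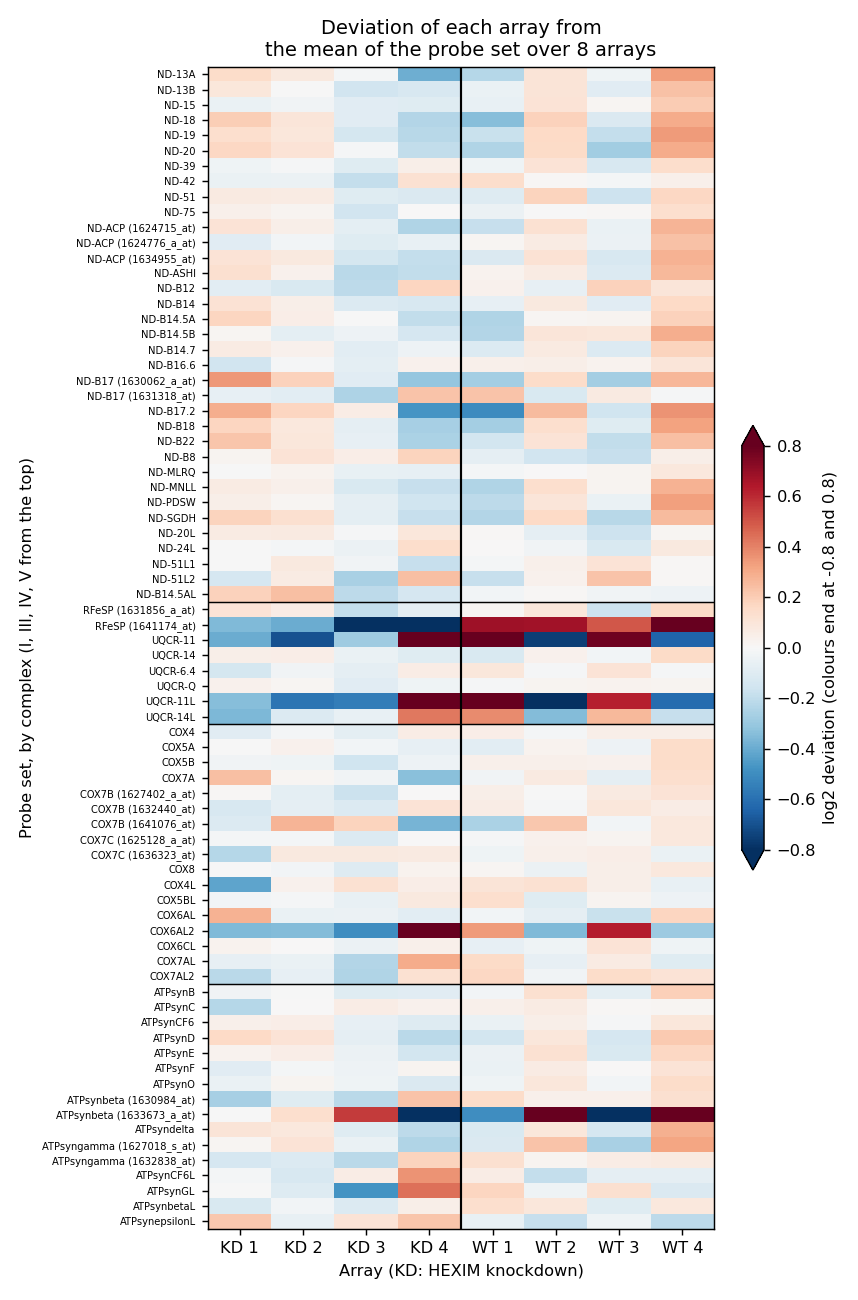
Deviation of each array (columns, HEXIM knockdown as KD left of WT) from the mean of its probe set over the 8 arrays on the log2 scale (colour, ending at -0.8 and 0.8), for the 76 members (rows, by complex from I at the top to V). RFeSP 1641174_at separates the genotypes, whereas several complex I rows are low in KD 4, WT 1 and WT 3 together, and UQCR-11, UQCR-11L and COX6AL2 are high in those arrays.

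Members varied with the set of 3 arrays described above, which was found from the data and is given as a description, about as often as all probe sets did. HEXIM knockdown replicate 4 and WT replicates 1 and 3 were all lower than the other 5 arrays for 15 members (19.7%) and all higher for 11 (14.5%), together 34.2%. Over all probe sets tested, 12.7% were lower and 19.9% higher in all 3 arrays, together 32.6%. Of the 28 complex I subunit probe sets with a mean log2 level over 10, 10 were lower in all 3 arrays (35.7%) and 1 was higher (3.57%), with a median difference of -0.21. Among all 1364 probe sets with a mean log2 level over 10, 22.6% were lower and 7.26% higher in all 3 arrays, with a median difference of -0.08. The largest such difference in complex I was -0.61 for ND-B17.2. In complex III the differences went the other way for UQCR-11 (1.48), UQCR-11L (1.64) and UQCR-14L (0.56), and in complex IV for COX6AL2 (0.99). Probe sets of the same gene could differ in direction. ATPsynbeta 1633673_a_at averaged 8.78 in the 3 arrays and 10.14 in the other 5, all 3 lower, while 1630984_at was higher by 0.22. ND-B17 1630062_a_at was lower by 0.46 in the 3 arrays and 1631318_at higher by 0.28, and for ATPsyngamma 1627018_s_at was lower by 0.33 and 1632838_at higher by 0.19. Without these 3 arrays the median log2 fold change of the members was -0.12 (65 of 76 negative), and -0.14 in complexes I and V, with a median of -0.01 for all probe sets, and 0 members passed the test in limma with 3 HEXIM knockdown and 2 WT arrays.

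**Figure D4:**
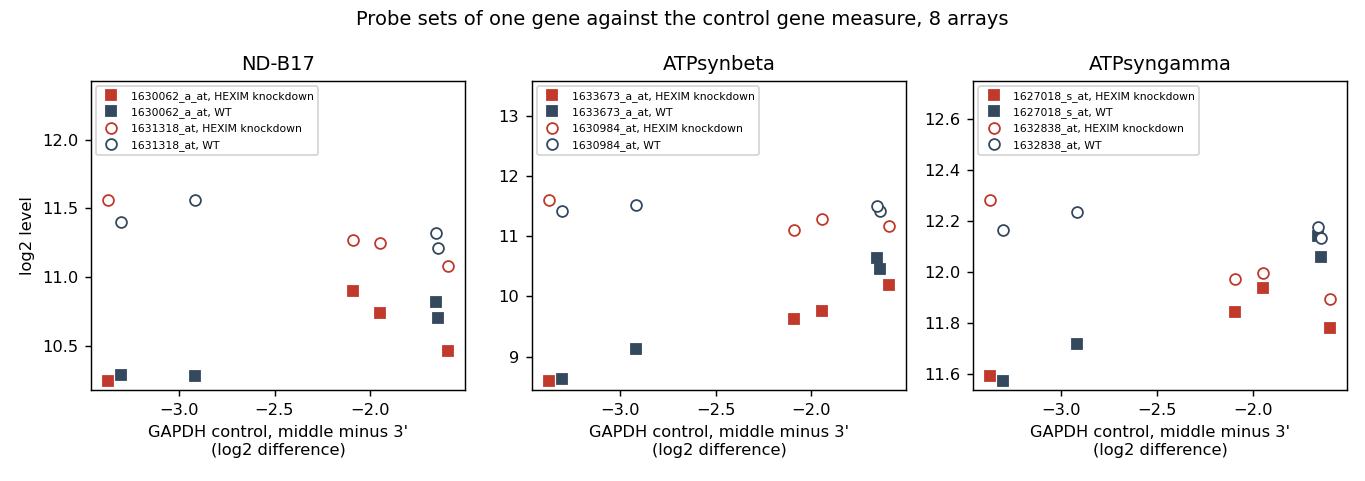
Log2 level (y axis) of 2 probe sets each of ND-B17, ATPsynbeta and ATPsyngamma in every array, against the log2 difference between the middle and the 3' probe set of the GAPDH control (x axis), HEXIM knockdown in red and WT in blue. In the 3 arrays at the left, the filled squares lie low (8.59 to 9.13 for ATPsynbeta 1633673_a_at) and the open circles do not.

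Other genes of the pathway that the symbols of the rule leave out were read by 61 probe sets for 58 genes in 7 lists, and 0 passed the test in limma. At an unadjusted p under 0.05 there were 7 of the 61, where the share over all probe sets was 7.24%. The arrays of the genotypes did not overlap for 7, all lower in HEXIM knockdown, where the share over all probe sets was 5.35% in either direction and 3.37% for lower. The median log2 fold change was -0.05, with 42 of 61 negative. For assembly factors of the respiratory complexes (10 of 33 genes measured), 7 of 10 were negative. Surf1, an assembly factor of cytochrome c oxidase, stood at log2 levels of 7.51, 7.34, 7.41 and 7.22 in HEXIM knockdown heads, against 7.66, 7.66, 7.66 and 7.84 in WT heads. Its arrays did not overlap, and the log2 fold change was -0.34 (SE 0.09, limma adjusted p = 0.287). AIF, the mitochondrial flavoprotein known from cell death and complex I assembly, had log2 levels of 7.77, 7.86, 8.07 and 7.78 in HEXIM knockdown heads, against 8.26, 8.15, 8.43 and 8.16 in WT heads. The HEXIM knockdown arrays of AIF were again all lower, with a fitted difference of -0.38 (SE 0.10, limma adjusted p = 0.290). Of this list, the arrays of Bcs1, which in yeast inserts the Rieske protein into complex III, also lay apart, at -0.17 (SE 0.07, adjusted p = 0.610), as did those of the complex I factor CIA30, at -0.13 (SE 0.06, adjusted p = 0.781). These 3 genes beside Surf1 were picked after their values were seen.

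Genes that express the mitochondrial genome (11 of 14 measured) had a median log2 fold change of -0.12, with 10 of 11 negative and 0 called. Over all probe sets tested, 55.4% were negative. The mean log2 level of this list was 7.12 to 7.25 in HEXIM knockdown arrays and 7.27 to 7.32 in WT arrays, without overlap. The highest HEXIM knockdown array and the lowest WT array were close together. In all the other pathway lists these means overlapped. They were 8.21 to 8.40 in HEXIM knockdown and 8.34 to 8.46 in WT for complex II. For the assembly factors they were 8.02 to 8.29 in HEXIM knockdown and 8.20 to 8.38 in WT. The lowest p was that of mTerf5, of the mitochondrial transcription termination factor family, which stood at log2 levels of 7.86, 8.08, 8.08 and 7.86 in HEXIM knockdown heads, against 8.21, 8.25, 8.14 and 8.34 in WT heads. The arrays did not overlap, and the log2 fold change was -0.27 (SE 0.09, limma adjusted p = 0.464). In complex II, the succinate dehydrogenase (6 of 9 genes measured), the median was -0.07, and the lowest p belonged to the assembly factor Sdhaf3 (-0.19, SE 0.08, adjusted p = 0.665). Among carriers of electrons and nucleotides (5 of 9 genes), that of the adenine nucleotide translocase Ant2 was lowest, at -0.30 (SE 0.12, limma adjusted p = 0.645). Subunits under other names (7 of 10 genes) had a median of -0.04, and their lowest p was that of sun, the epsilon subunit of ATP synthase, at -0.24 (SE 0.13, adjusted p = 0.824). The citric acid cycle (17 probe sets, 15 of 27 genes) had a median of -0.04 with 0 at an unadjusted p under 0.05, and ScsbetaG, a subunit of succinyl-CoA synthetase, came first at -0.15 (SE 0.09, adjusted p = 0.922). For regulators of nuclear respiratory genes (5 probe sets, 4 of 7 genes), limma gave Atf-2 the smallest p, at 0.79 (SE 0.43, adjusted p = 0.846). Its log2 levels were 9.45, 9.36, 9.58 and 7.94 in HEXIM knockdown heads and 7.96, 9.03, 7.53 and 8.63 in WT heads, lowest in the 3 arrays that lay apart.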

How the data were processed

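RNA of whole adult heads from 4 HEXIM knockdown and 4 WT samples was hybridized to 3' end arrays. The deposited values are log2 signals. For the normalization by the authors, Affymetrix Expression Console with RMA is given in the submitters' processing notes and GCRMA in R in the paper. No further transformation was applied. The number of arrays limits the precision. The p-values of limma weigh the difference between genotypes only against the spread between these samples, moderated over all probe sets.

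Groups followed the sample titles. HEXIM knockdown minus WT was fitted by lmFit and eBayes of limma 3.58.1 (R 4.3.3), with genotype as its single term, to 18769 probe sets, without 183 controls, and adjusted after Benjamini and Hochberg. Dim probe sets were kept, and no fold change was required. The fit was tested on simulated data. Tables and figures were made with scipy 1.17.1, pandas 2.3.3, numpy 2.4.6 and matplotlib 3.10.9 under Python 3.11.15. Symbols come from the platform annotation, and the 67 gene symbols stood unchanged in the RefSeq gene table, used only for names and neighbours. The genome build of the files is not given in the sources used here.

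The members, pathway lists and marker lists were chosen with earlier results of these data known. Where the total of a pathway or marker list is given in genes, it counts listed symbols. Some genes are listed under more than a single name, such as nSyb and n-syb or dj and don-juan. Named were all RFeSP probe sets and called members, in each complex the 2 subunit probe sets with the highest and the 2 with the lowest log2 fold change and the one with the highest signal, the 3 further genes whose probe sets differed most, members at an unadjusted p under 0.01 with arrays apart, the 2 brightest paralogs, and the smallest p of each pathway list. Other genes were named for their role or after their values were seen. Alternatives were a replicate block, array weights, trend and robust eBayes, a minimum mean log2 level of 5, median centring, quantile normalization, 1 probe set per gene, no paralogs, and leaving out each array or the 3 arrays apart. Promoter, protein and probe sequences were not used here.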

Additional observations from a re-analysis of the deposited data

Results flagged for a closer look

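A single array stood apart from the other 3 of its genotype, by Dixon's criterion for 4 samples, in 11 of the 166 groups of 4 arrays that the members and named pathway genes gave, where chance gives about 1 in 20, or 8.3 groups. HEXIM knockdown replicate 4 was the array apart for the paralog UQCR-11L (8.17, the others 6.03 to 6.28), the paralog COX6AL2 (6.27, the others 4.90 to 5.05) and Atf-2 (7.94, the others 9.36 to 9.58). HEXIM knockdown replicate 1 was apart for the paralogs COX4L (5.24, the others 5.70 to 5.79) and COX6AL (3.82, the others 3.46 to 3.50) and for the dim COX7C probe set 1636323_at (3.48, the others 3.78 to 3.79). HEXIM knockdown replicate 3 was the low array for COX5B (12.53, the others 12.65 to 12.66) and for COX7C 1625128_a_at (12.81, the others 12.90 to 12.92). In WT, replicate 4 was the high array for COX5B (12.84, the others 12.73) and Surf1 (7.84, the others 7.66), and replicate 2 was the low one for COX4 (12.97, the others 13.04).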

How the results depend on the processing

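The number of members called was 0 with the replicate block, without the 3 arrays that lay apart and with 1 probe set per gene (the one with the highest mean level, which for RFeSP is 1631856_a_at), and 0 to 1 without 1 array. RFeSP 1641174_at was -1.37 with the replicate block (adjusted p = 0.215 from limma), -1.35 without the 3 arrays apart (adjusted p = 0.192) and -1.48 to -1.25 without 1 array (adjusted p from 0.0237 to 0.111). With array weights it was -1.18 (limma adjusted p = 0.00347), and 2 pathway probe sets were called, those of Surf1 and AIF. That fit called 507 probe sets over all, against 48 in the unweighted fit. It gave HEXIM knockdown replicate 2 a weight of 9.03, the other HEXIM knockdown arrays 0.27 to 0.87 and WT arrays 0.53 to 1.59. Its HEXIM knockdown means thus lean mostly on replicate 2. The median of the members was -0.12 without the 3 arrays apart. The cause of these differences was not tested. Over all probe sets 1 was called with the replicate block, 3 without the 3 arrays apart and 10 to 48 without 1 array. The deviations of same-numbered arrays from their genotype means correlated at -0.11, 0.57, -0.19 and -0.72. HEXIM knockdown replicate 4 correlated at 0.67 and 0.72 with WT replicates 1 and 3, the arrays that lay apart with it. Since this split enters the correlations, they cannot show whether same-numbered samples were prepared together, and no shared origin is assumed. Under the other settings RFeSP 1641174_at kept its call, with adjusted p from 0.0169 (quantile normalized) to 0.0428 (median centred). The median SE of a member was 0.10, which bounds what 4 arrays against 4 can show.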
